A study of Oryctolagus cuniculus with 20 samples.

Results

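The genes described here are those of mitosis and the centromere in rabbit vessels: 51 genes of the 23669 in the deposited table. They were chosen by symbol alone, from the centromere proteins (CENP genes), the A and B cyclins, the Aurora and Polo kinases, the mitotic kinesins, the CDCA and BUB genes and a short list of single genes such as CDK1, NDC80, MAD2L1 and TOP2A. The rule used no measured value, but it was set with earlier results of these data known. The study transplanted an artery into a vein of the rabbit (Oryctolagus cuniculus) and sequenced total RNA from whole vessels in 20 libraries, 4 for each of 5 groups. The grafts were common carotid artery placed in a vein and taken 14 or 30 days after surgery. Their controls were common carotid arteries from the contralateral side without operation, taken on the same days. The fifth group was unoperated external jugular vein. Every library, control and vein included, carries the same treatment label of transplantation, a genotype label that reads tissue, and the cell line label HASMC, although the samples are tissue. Strain, sex and age of the animals and the number of animals are not given in the sources used here. The labels number the replicates as biological but do not name animals, and p-values therefore describe only how far these libraries scatter, which may be technical.

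Mitosis shares the copied chromosomes between the daughter cells. As known from human and mouse cells, the kinase CDK1 bound to a B cyclin drives entry into mitosis, and the kinetochore then ties each chromosome to the spindle. The kinetochore is built on chromatin that carries the histone variant CENP-A, over which the constitutive centromere-associated network (CCAN) and an outer microtubule-binding layer are laid. A checkpoint holds back separation until every chromosome is attached, and kinesins and microtubule-bundling proteins shape the spindle and the cleavage site. Most of these genes are transcribed mainly in the G2 and M phases of the cell cycle, so resting tissue holds little of their RNA. Smooth muscle cells of an artery rest in the adult and can divide after injury or grafting.

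Levels are FPKM, fragments scaled to transcript length and to the mapped total of the library, so genes of different length can be compared. The table holds no counts, so the depth of the libraries is unknown and no counting error can be given. A value of 0 can be a failed estimate in such a table: SMTN, a smooth muscle gene, was listed at 0 in all 20 libraries and PECAM1, an endothelial gene, in all 8 control libraries. Of the 51 genes, 29 were listed at 0 in at least 1 library, and the levels of such genes are given below by library or range, never as a mean over a group that holds a 0. Changes are differences of log2(FPKM + 1) from limma with its standard error (SE), and p-values carry a Benjamini-Hochberg adjustment that spans every tested gene, with a threshold of 0.05. The constant of 1 understates the change of genes at low levels.

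The libraries were not equally independent. The 4 control libraries of day 14 were nearly the same: their median SD of log2 values, over 1265 genes of at least 30 FPKM on average, was 0.0733, against 0.324 in the grafts of day 14, 0.198 and 0.189 in controls and grafts of day 30 and 0.135 in the vein. In each of the other 4 groups, 1 library lay close to a weighted mean of the other 3, with a median distance of 0.0775 to 0.0879 on the log2 scale, against 0.103 to 0.311 for the other libraries of these groups. Results are therefore also given with the control libraries of day 14 counted as 1 sample, without those 4 libraries (graft day 14 replicate 3, control day 30 replicate 2, graft day 30 replicate 4 and vein replicate 4), and with both changes. FPKM summed over all genes ran from 327806 to 671582 per library, and was highest in graft day 14 replicates 1 and 2.

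Genes of mitosis and the centromere stood higher in the grafts of day 14 than in the contralateral arteries. Fitted with all 16474 genes above 0 in some library, 34 of the 51 were higher and 1 was lower (limma), where 22.6% of all genes were called higher and 10.2% lower, or 32.8% in either direction. Their median change was 0.93 on the log2 scale, and that of all genes was 0.04. For 35 of the 51, all 4 graft libraries lay above all 4 controls, and for none did they all lie below; over all genes these shares were 21.7% and 10.5%. Summed FPKM of the members other than FAM83D was 25.5 to 26.6 in the control libraries and 102 to 196 in the grafts.

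**Figure D1:**
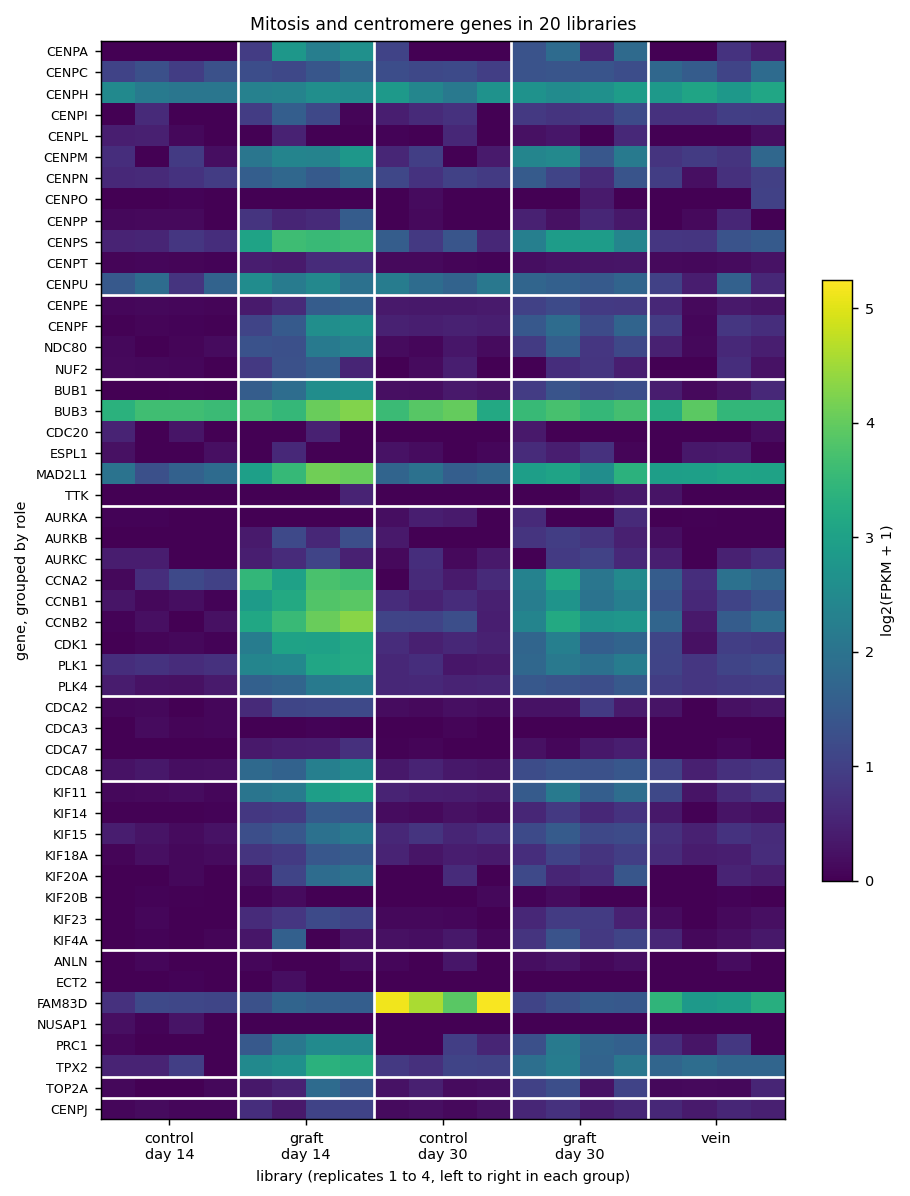
Level of the 51 genes of mitosis and the centromere (rows, grouped by role) in the 20 libraries (columns, 4 per group), as colour on the scale of log2(FPKM + 1). Most rows are dark in the control columns and brighter in the graft columns of day 14, with graft columns of day 30 between; FAM83D is brightest in the control columns of day 30.

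The same test, run with a filter of at least 1 FPKM in at least 4 libraries, kept 8657 genes and 27 of the 51 members. Of these 27, 23 were called higher and 0 lower at day 14, beside 36.5% and 17.0% of all genes tested, or 53.5% in either direction. That count cannot stand as a share of the members. Of the 27, 17 passed the filter only with graft libraries counted, which favoured genes higher in grafts. The other 10 would have passed through control and vein libraries alone, and 6 of them were higher and 0 lower: CENPS, CENPU, MAD2L1, CCNA2, CCNB2 and TPX2. Just inside the filter were CENPE, at 1 FPKM or more in 4 libraries, and KIF20A and TOP2A in 5. Just outside were CDCA2, CENPI, KIF18A and KIF4A, in 3 libraries each. Values of single genes below come from the filtered test unless they are given as from the fit of all genes.

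Sums of cell type markers also differed between grafts and controls of day 14, some higher and some lower. Smooth muscle markers, 5 found, summed to 8240 to 8750 FPKM in the control libraries of day 14 and to 608 to 923 in the grafts, and all 4 that could be tested were lower. The 8 macrophage markers summed to 14.5 to 16.6 FPKM in those controls, with CD68, C1QA and C1QB at 0 in all 4, and to 262 to 568 in the grafts, where 5 of the 6 tested were higher. T and NK cell markers went from 0.29 to 0.42 up to 9.51 to 14.7 FPKM, B and plasma cell markers from 0.07 to 1.99 up to 32.2 to 72.0, and endothelial markers from 20 to 23.1 up to 92.9 to 203, with 3 of 3, 3 of 3 and 3 of 5 tested markers higher. Fibroblast markers summed to 1700 to 1880 FPKM in these controls and 3070 to 3830 in the grafts, with 1 higher and 2 lower of 6. The 1 higher was COL1A2, which carried the rise of the sum, at means of 575 FPKM in controls and 2970 in grafts. The 2 lower were PI16, at means of 633 and 32.4 FPKM, and DCN, at 446 and 284. Neutrophil and mast cell markers summed to 360 to 408 and 75.2 to 157 FPKM, with 1 higher and 0 lower of 4. The part of these shifts in the mitotic genes was not tested. In whole vessels, fewer cells of a type and less RNA per cell cannot be told apart, and neither can more dividing cells and more mitotic RNA in each.

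CENPA encodes the histone variant that marks the centromere. It was listed at 0 in all 4 control libraries of day 14, and stood at 0.92, 5.85, 3.75 and 5.2 FPKM in graft replicates 1 to 4. At day 30 the controls stood at 1.08, 0, 0 and 0 FPKM and the grafts at 1.52, 2.59, 0.45 and 2.51. The groups did not overlap at day 14 and overlapped at day 30, where control replicate 1 lay above graft replicate 3. The log2 change was 2.15 (SE 0.37, adjusted p = 8.71e-05) at day 14 and 1.12 (SE 0.37, adjusted p = 0.0232) at day 30. The call at day 14 ended with control day 14 as 1 sample and without the 4 libraries near a mean of others (adjusted p = 0.0744). The call at day 30 ended on leaving out control replicate 2, 3 or 4 or graft replicate 2 or 4, with quantile normalization and without the 4 libraries, where the adjusted p was highest with both changes (0.287).

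Centromere chromatin and the CCAN together held 12 members, of which 8 were higher at day 14 and none lower when all were tested, and 4 were higher at day 30. These and the counts of the other role groups stand beside 22.6% of all genes higher at day 14 and 16.0% at day 30. CENPS, a histone-fold protein of the CCAN that also acts in DNA repair, had the widest rise of this group at day 14. Its controls of day 14 stood at 0.44, 0.45, 0.78 and 0.62 FPKM and its grafts at 7.21, 11.3, 10.8 and 11.3. The controls of day 30 stood at 1.91, 0.84, 1.61 and 0.5 FPKM and the grafts at 3.83, 6.49, 6.43 and 4.27. Grafts lay above controls without overlap on both days, and the changes were 2.81 (SE 0.23, adjusted p = 1.41e-08) and 1.52 (SE 0.23, adjusted p = 3.78e-05). CENPM, a CCAN subunit related in fold to small GTPases, had 0.62, 0, 0.86 and 0.14 FPKM in day 14 controls against 3.19, 4.2, 4.12 and 5.85 in day 14 grafts, and 0.48, 0.96, 0 and 0.3 against 4.23, 4.56, 1.67 and 3.4 at day 30. CENPM rose by 1.95 (SE 0.29) and 1.63 (SE 0.29), and CENPN, which binds CENP-A nucleosomes, was called at day 14 only, with changes of 0.93 (SE 0.19) and 0.20 (SE 0.19).

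The inner CCAN was not uniform. CENPC, the subunit that links CENP-A chromatin to the outer kinetochore, stood at 1.08, 1.44, 0.93 and 1.45 FPKM in the controls of day 14 and at 1.36, 1.19, 1.66 and 2.33 in the grafts. CENPH, a core CCAN subunit, stood at 4.62, 3.44, 3.17 and 3.17 FPKM in these controls and at 3.94, 4.08, 5.0 and 4.78 in the grafts. For both genes the groups overlapped, and neither passed the test at day 14 (log2 difference 0.23, SE 0.16, adjusted p = 0.24 for CENPC, and 0.25, SE 0.15, adjusted p = 0.173 for CENPH) or at day 30 (0.20 and 0.18, adjusted p = 0.369 and 0.398). Both differences turned negative with quantile normalization, to -0.10 and -0.08 at day 14. Unlike most members, CENPC and CENPH were above 0.9 FPKM in every library.

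CENPU, a CCAN subunit that helps to recruit PLK1, went apart on the 2 days. Its controls stood at 1.76, 2.62, 0.72 and 2.19 FPKM at day 14 and the grafts at 4.86, 3.55, 4.43 and 2.88, all above the controls. At day 30 the controls stood at 3.63, 2.64, 2.17 and 3.28 FPKM and the grafts at 2.29, 2.06, 1.81 and 2.22, so that 3 controls lay above all grafts. The change at day 14 was 0.84 (SE 0.25, adjusted p = 0.00855), and the difference at day 30 was -0.33 (SE 0.25, adjusted p = 0.327). The call at day 14 ended under TPM scaling, quantile normalization and control day 14 as 1 sample, with adjusted p up to 0.256, and with quantile normalization the day 30 difference was called lower (adjusted p = 0.0459). CENPI, CENPP and CENPT, which stayed under the filter, were higher at day 14 in the fit of all genes, by 0.77 (SE 0.25), 0.78 (SE 0.17) and 0.46 (SE 0.06). CENPL and CENPO reached no more than 0.52 and 1.02 FPKM in any library and were not called on either day.

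All 4 members of the outer kinetochore were higher at day 14 in the fit of all genes, and 3 at day 30. NDC80, a subunit of the complex that grips microtubule ends, stood at 0.08, 0.01, 0.05 and 0.11 FPKM in the controls of day 14 and at 1.49, 1.44, 3.39 and 3.94 in the grafts. At day 30 its controls stood at 0.11, 0.07, 0.25 and 0.11 FPKM and its grafts at 0.87, 1.97, 0.77 and 1.19. No graft overlapped a control, and the changes were 1.67 (SE 0.22, adjusted p = 3.85e-06) and 0.93 (SE 0.22, adjusted p = 0.00239). The day 30 call of NDC80 ended with control day 14 as 1 sample and without the 4 libraries near a mean of others (adjusted p = 0.0662). NUF2, its partner in that complex, stayed under the filter with at most 1.89 FPKM, and was higher at day 14 only (0.98, SE 0.21, adjusted p = 0.00126, and 0.33, SE 0.21, adjusted p = 0.298, at day 30).

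CENPE, a kinesin that moves chromosomes to the spindle equator, stood at 0.07, 0.08, 0.07 and 0.05 FPKM in the controls of day 14 and at 0.31, 0.55, 1.88 and 2.08 in the grafts. CENPF, a large protein of the outer kinetochore and the nuclear matrix, stood at 0.02, 0.05, 0.03 and 0.02 FPKM in these controls and at 1.1, 1.81, 5.01 and 5.26 in the grafts. In both genes graft replicates 3 and 4 lay far above replicates 1 and 2. The rises were 0.95 (SE 0.22, adjusted p = 0.00116) for CENPE and 1.91 (SE 0.28, adjusted p = 1.96e-05) for CENPF at day 14, and 0.63 (SE 0.22, adjusted p = 0.0282) and 1.09 (SE 0.28, adjusted p = 0.00546) at day 30. The day 30 grafts stood at 1.02, 1.27, 0.85 and 0.82 FPKM for CENPE and at 1.74, 2.61, 1.31 and 2.24 for CENPF, against controls of 0.26 to 0.31 and 0.36 to 0.4. Without the 4 libraries near a mean of others CENPE fell under the filter and was not tested, with or without control day 14 as 1 sample. CENPE's call ended with control day 14 as 1 sample at day 14 (adjusted p = 0.0732), and at day 30 with TPM scaling, with quantile normalization, with control day 14 as 1 sample and without control replicate 2 or 3 (adjusted p up to 0.132). CENPF's ended with both changes on both days (0.052 and 0.0836).

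Of 6 checkpoint and anaphase members, 2 were higher on each day, where 22.6% and 16.0% of all genes were. BUB1, a checkpoint kinase, had values of 0, 0, 0.02 and 0 FPKM in the controls of day 14 and of 1.91, 2.66, 4.94 and 5.31 in the grafts. At day 30 it stood at 0.16, 0.15, 0.29 and 0.21 FPKM in controls and at 0.91, 1.56, 1.2 and 1.37 in grafts. The groups were apart on both days, with rises of 2.15 (SE 0.20, adjusted p = 7.28e-08) and 0.90 (SE 0.20, adjusted p = 0.00148). MAD2L1, the MAD2 protein that inhibits the anaphase activator CDC20, stood at 2.99, 1.42, 2.08 and 2.59 FPKM in the controls of day 14 and at 6.79, 10.5, 16.2 and 15.4 in the grafts. At day 30 its controls stood at 2.21, 2.89, 1.98 and 2.29 FPKM and its grafts at 6.65, 7.31, 4.95 and 9.43. MAD2L1 too was separate on both days and rose by 1.97 (SE 0.22, adjusted p = 7.87e-07) and 1.25 (SE 0.22, adjusted p = 0.000219).

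BUB3, the partner of BUB1 that also occurs outside mitosis, was the member with the highest level in the controls of day 14 and did not pass the test on either day. It stood at 9.27, 11.5, 11.4 and 10.9 FPKM in those controls and at 11.7, 10.3, 15.5 and 18.1 in the grafts, with a difference of 0.32 (SE 0.19, adjusted p = 0.165). At day 30 it stood at 11, 13.8, 15.2 and 8.04 FPKM in controls and at 10.6, 12.2, 10.3 and 11.8 in grafts, and all grafts lay within the range of the controls (difference -0.05, SE 0.19, adjusted p = 0.851). CDC20, TTK and ESPL1, which encode the activator of the anaphase-promoting complex, the checkpoint kinase MPS1 and the protease separase, were near 0 in all groups, with highest values of 0.43, 0.43 and 0.69 FPKM. TTK was listed at 0 in 16 of the 20 libraries. None of these 3 was called on either day.

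The cyclins and kinases held the 2 widest changes at day 14, those of CCNB2 and CCNB1. CDK1, the kinase that drives mitotic entry, stood at 0.01, 0.05, 0.08 and 0.04 FPKM in the controls of day 14 and at 3.64, 7.14, 7.08 and 8.06 in the grafts. At day 30 it stood at 0.58, 0.38, 0.5 and 0.4 FPKM in controls and at 2.27, 3.82, 1.96 and 2.21 in grafts. All grafts exceeded all controls, and the rises were 2.80 (SE 0.21, adjusted p = 7.75e-09) and 1.26 (SE 0.21, adjusted p = 0.000145).

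CCNB1, cyclin B1 and CDK1's main partner, stood at 0.23, 0.08, 0.14 and 0.03 FPKM in the controls of day 14 and at 6.34, 8.18, 13.2 and 14.1 in the grafts. CCNB2, cyclin B2, stood at 0.04, 0.16, 0 and 0.17 FPKM in these controls and at 7.71, 10.7, 15.6 and 19.0 in the grafts, the largest change of the 27 tested members at day 14 (3.64, SE 0.30, adjusted p = 2.34e-08). CCNB1 rose by 3.30 (SE 0.22, adjusted p = 1.46e-09). At day 30 CCNB1 stood at 0.59, 0.41, 0.59 and 0.38 FPKM in controls against 3.66, 5.59, 3.02 and 3.82 in grafts, and CCNB2 at 1.12, 1.09, 1.4 and 0.36 against 4.2, 8.06, 5.5 and 5.78. Both B cyclins were again apart from their controls, with rises of 1.73 (SE 0.22) and 1.79 (SE 0.30).

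CCNA2, cyclin A2, which acts in S phase and early mitosis, stood at 0.08, 0.6, 1.23 and 1.02 FPKM in the controls of day 14 and at 10.1, 7.08, 12.3 and 11.4 in the grafts. At day 30 its controls stood at 0, 0.54, 0.3 and 0.55 FPKM and its grafts at 4.03, 7.74, 3.18 and 4.56, the largest rise of the tested members on that day (2.09, SE 0.29, adjusted p = 2.02e-05). Its rise at day 14 was 2.72 (SE 0.29, adjusted p = 4.42e-07). Grafts and controls did not overlap on either day.

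**Figure D2:**
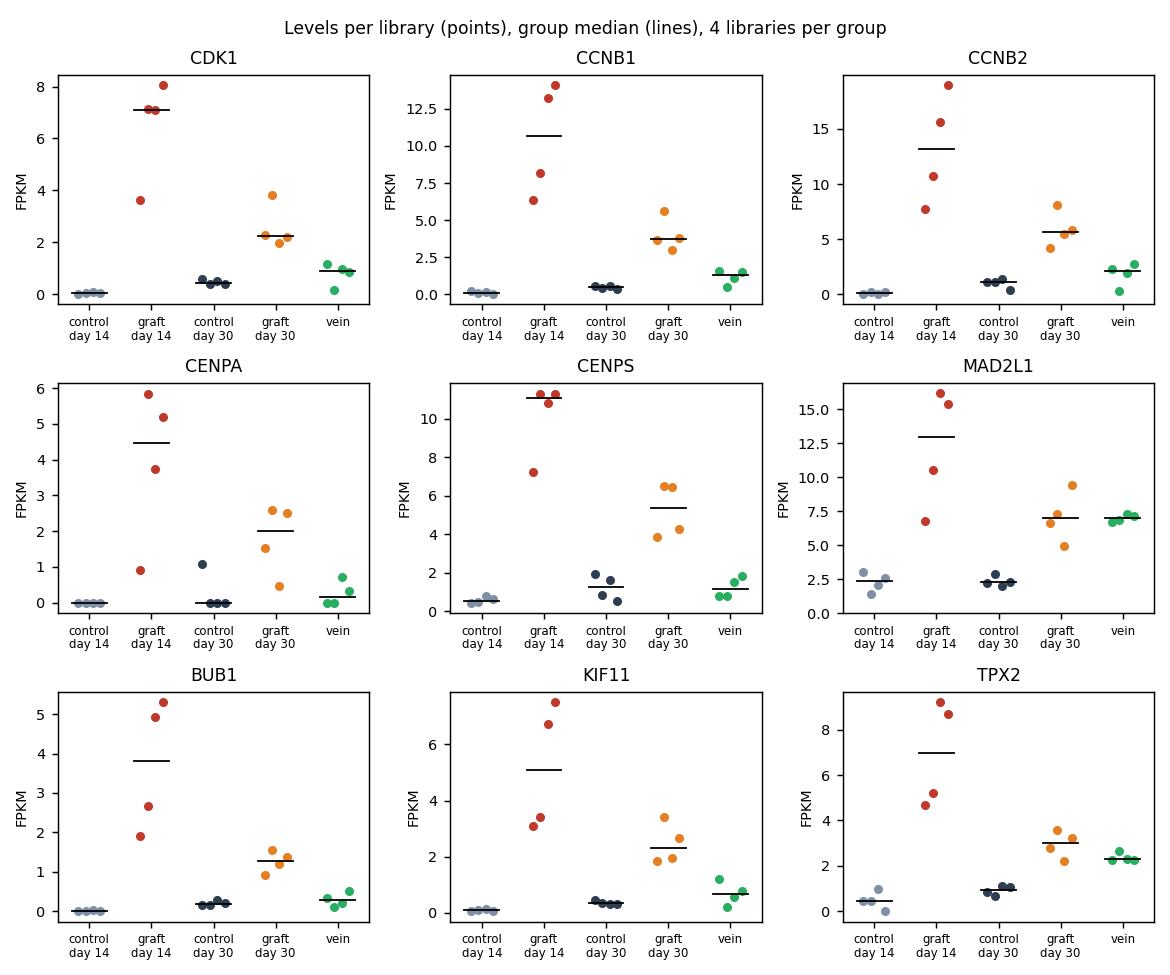
FPKM per library of 9 genes of mitosis and the centromere in the 5 groups; points are libraries and lines are group medians of 4 libraries. For CDK1, CCNB1, CCNB2, CENPS, MAD2L1, BUB1, KIF11 and TPX2 every graft point lies above every control point of the same day, and CENPA has 1 control of day 30, at 1.08 FPKM, within the grafts.

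PLK1, a kinase of centrosomes and kinetochores, stood at 0.6, 0.71, 0.58 and 0.69 FPKM in the controls of day 14 and at 4.23, 4.45, 7.66 and 8.2 in the grafts, and at day 30 at 0.24 to 0.62 in controls and 2.39 to 3.6 in grafts. It rose by 2.07 (SE 0.17, adjusted p = 2.47e-08) and 1.52 (SE 0.17, adjusted p = 2.26e-06). PLK4, the kinase that starts centriole copying, stood at 0.18 to 0.32 FPKM in the controls of day 14 and 2.06 to 3.73 in the grafts, and at 0.43 to 0.53 and 1.4 to 1.75 at day 30, with rises of 1.61 (SE 0.13) and 0.81 (SE 0.13). The Aurora kinases stayed under the filter. AURKB, the kinase of the chromosomal passenger complex, was listed at 0 in all controls of day 14 and had 0.3, 1.22, 0.51 and 1.39 FPKM in their grafts. At day 30 the controls held 0.28, 0, 0 and 0 FPKM and the grafts 0.72, 0.95, 0.74 and 0.37. In the fit of all genes it was higher on both days (0.85, SE 0.16, adjusted p = 0.000392, and 0.66, SE 0.16, adjusted p = 0.00497). AURKA, the spindle pole kinase, was listed at 0 in all 4 grafts of day 14, had at most 0.55 FPKM elsewhere and was not called, nor was AURKC, a meiotic relative, at up to 1.1 FPKM.

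Among the CDCA genes, CDCA8, which encodes borealin of the chromosomal passenger complex, stood at 0.2, 0.26, 0.15 and 0.16 FPKM in the controls of day 14 and at 2.49, 2.14, 3.84 and 4.71 in the grafts. Its day 30 controls stood at 0.27, 0.43, 0.26 and 0.23 FPKM and its grafts at 1.32, 1.52, 1.46 and 1.7. It was apart on both days and rose by 1.81 (SE 0.17, adjusted p = 7.06e-08) and 0.95 (SE 0.17, adjusted p = 0.0002). CDCA2, a phosphatase targeting subunit, and CDCA7, a chromatin protein, were under the filter and higher at day 14 in the fit of all genes (0.93, SE 0.13, and 0.49, SE 0.07). CDCA3 was at or under 0.11 FPKM in all libraries.

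Of 8 kinesins, 6 were higher on each day in the fit of all genes. KIF11 (Eg5), which pushes the spindle poles apart, stood at 0.08, 0.09, 0.13 and 0.06 FPKM in the controls of day 14 and at 3.09, 3.41, 6.74 and 7.51 in the grafts. At day 30 it stood at 0.44, 0.35, 0.33 and 0.3 FPKM in controls and at 1.84, 3.42, 1.96 and 2.68 in grafts. Its groups were apart, with rises of 2.43 (SE 0.23, adjusted p = 8.45e-08) and 1.34 (SE 0.23, adjusted p = 0.000145). KIF15, which can share the work of KIF11, rose by 1.43 (SE 0.17, adjusted p = 1.34e-06) and 0.61 (SE 0.17, adjusted p = 0.00802), from 0.11 to 0.33 up to 1.4 to 3.47 FPKM at day 14 and from 0.46 to 0.72 up to 1.21 to 1.84 at day 30. The day 30 call of KIF15 ended with TPM scaling, with quantile normalization and with both changes to the libraries (adjusted p up to 0.109). KIF20A, a kinesin of the central spindle, had 0, 0, 0.08 and 0 FPKM in day 14 controls against 0.14, 1.11, 2.61 and 2.97 in day 14 grafts. It rose at day 14 (1.25, SE 0.31, adjusted p = 0.00249) and missed the threshold at day 30 (0.78, SE 0.31, adjusted p = 0.0579).

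KIF23, the central spindle kinesin MKLP1, stayed under the filter: it stood at 0, 0.06, 0 and 0 FPKM in the controls of day 14 and at 0.57, 0.78, 1.28 and 1.08 in the grafts, and at 0.08, 0.08, 0.06 and 0 against 0.51, 0.88, 0.88 and 0.39 at day 30. In the fit of all genes it was higher on both days (0.91, SE 0.11, and 0.65, SE 0.11), as were KIF14, which acts in cytokinesis (1.13, SE 0.13, and 0.52, SE 0.13), and KIF18A, which limits the growth of kinetochore microtubules (1.02, SE 0.14, and 0.47, SE 0.14). KIF4A, a chromosome-bound kinesin, was called at day 30 only (0.52, SE 0.24, adjusted p = 0.119, and 0.81, SE 0.24, adjusted p = 0.021). Its grafts of day 14 ranged from 0 in replicate 3 to 2.07 FPKM in replicate 2. KIF20B did not exceed 0.11 FPKM in any library.

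Of 6 spindle and cytokinesis members, 2 were higher and 1 lower on each day in the fit of all genes. Among the 4 not called higher, ANLN, ECT2 and NUSAP1 were at or under 0.24 FPKM in every library, too low to show whether they rose. FAM83D is described further below. TPX2, which activates Aurora A and helps to nucleate spindle microtubules, stood at 0.44, 0.43, 0.96 and 0 FPKM in the controls of day 14 and at 4.66, 5.23, 9.22 and 8.71 in the grafts. At day 30 it stood at 0.84, 0.65, 1.11 and 1.06 FPKM in controls and at 2.79, 3.59, 2.19 and 3.21 in grafts. It was apart on both days and rose by 2.44 (SE 0.21, adjusted p = 2.88e-08) and 1.04 (SE 0.21, adjusted p = 0.000676). PRC1, which bundles the microtubules of the central spindle, had values of 0.07, 0, 0 and 0 FPKM in the controls of day 14 and of 1.76, 3.28, 4.69 and 4.57 in the grafts. Its day 30 controls stood at 0, 0, 0.97 and 0.45 FPKM and its grafts at 1.44, 3.45, 2.26 and 2.05. PRC1 was also separate on both days and rose by 2.11 (SE 0.27, adjusted p = 2.86e-06) and 1.31 (SE 0.27, adjusted p = 0.000747).

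ANLN and ECT2, a scaffold and an activator of the cleavage furrow, stayed at or under 0.24 and 0.14 FPKM in all libraries. For ANLN the day 14 controls held 0, 0.06, 0 and 0 FPKM and the day 14 grafts 0.06, 0, 0 and 0.13, and neither gene was called. NUSAP1, a spindle-associated protein, was the member called lower at day 14 in the fit of all genes (-0.14, SE 0.04, adjusted p = 0.0135): it stood at 0.16, 0.04, 0.21 and 0 FPKM in the controls of day 14 and was listed at 0 in every other library. At levels this low the call rests on 3 values near 0.

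TOP2A, the topoisomerase that untangles sister chromatids, stood at 0.08, 0, 0 and 0.08 FPKM in the controls of day 14 and at 0.26, 0.41, 2.57 and 1.77 in the grafts. At day 30 its controls stood at 0.19, 0.38, 0.12 and 0.14 FPKM and its grafts at 1.01, 1.41, 0.19 and 1.09. Graft replicate 3 of day 30 lay within the controls. Without the 4 libraries near a mean of others TOP2A fell under the filter and was not tested, with or without control day 14 as 1 sample. TOP2A rose at day 14 (0.98, SE 0.28, adjusted p = 0.00639), and this call ended with control day 14 as 1 sample (adjusted p = 0.151). At day 30 it missed the threshold (0.63, SE 0.28, adjusted p = 0.0861) and passed it without graft day 30 replicate 3 or graft day 14 replicate 3, with a lowest adjusted p of 0.0237. CENPJ, a centriole protein that shares the CENP prefix, was under the filter and higher on both days in the fit of all genes (0.68, SE 0.12, and 0.39, SE 0.12).

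A further 10 genes carry names of the same families but are named in the deposited table only through an NCBI gene number, so they are not among the 51. In the fit of all genes, 4 of the 9 that could be tested were higher at day 14 (BUB1B, CENPW, KIF2C and MKI67), 2 at day 30 (BUB1B and CENPW) and 0 were lower on either day. CENPK, CENPQ, CCNA1, KIF18B and SPC25 were not called, and CENPV was listed at 0 in every library. BUB1B, the checkpoint protein BUBR1, had FPKM of 0.15, 0.07, 0.07 and 0.09 in day 14 controls, 2.22, 2.39, 3.72 and 5.3 in day 14 grafts, and rose by 1.96 (SE 0.21, adjusted p = 3.56e-07), and by 1.12 (SE 0.21, adjusted p = 0.000304) at day 30. CENPW, a CCAN histone-fold subunit described after its values were seen, rose by 3.08 (SE 0.18) and 1.31 (SE 0.18). MKI67, whose protein is the Ki-67 marker of dividing cells, was listed at 0 in the 4 controls of day 14, had 0.12, 0.16, 0.45 and 0.24 FPKM in their grafts, and stood at most at 0.13 FPKM in any other library.

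At day 30 the same comparison called 27 of the 51 members higher and 1 lower in the fit of all genes, beside 16.0% and 7.05% of all genes. The median change was 0.47 for the members and 0.04 for all genes. With the filter, 19 of 27 were higher and 1 lower, beside 26.0% and 11.6%, or 37.6% in either direction. Again 17 of the 27 had passed only with grafts counted. Of the other 10, 5 were higher and 1 lower, with a median of 0.62. Groups were apart for 29 members with the graft higher and 1 with it lower, against 15.3% and 7.08% of all genes. The marker sums differed at day 30 as well: smooth muscle 6020 to 8650 FPKM in controls and 1340 to 1770 in grafts, macrophage 18.7 to 38.9 and 198 to 391, endothelium 24.2 to 57.5 and 222 to 256, fibroblast 1600 to 3200 and 4290 to 4960, T and NK cell 0.09 to 2.52 and 5.97 to 19.9, B and plasma cell 1.59 to 14.2 and 83.5 to 436. In the fibroblast sum, COL1A2 alone had means of 1100 FPKM in controls and 3490 in grafts, and 2 of the 6 markers tested were higher and 0 lower. Neutrophil and mast cell markers ran from 11.8 to 1010 in these controls and from 89.5 to 208 in the grafts. Their part in the result was not tested.

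**Figure D3:**
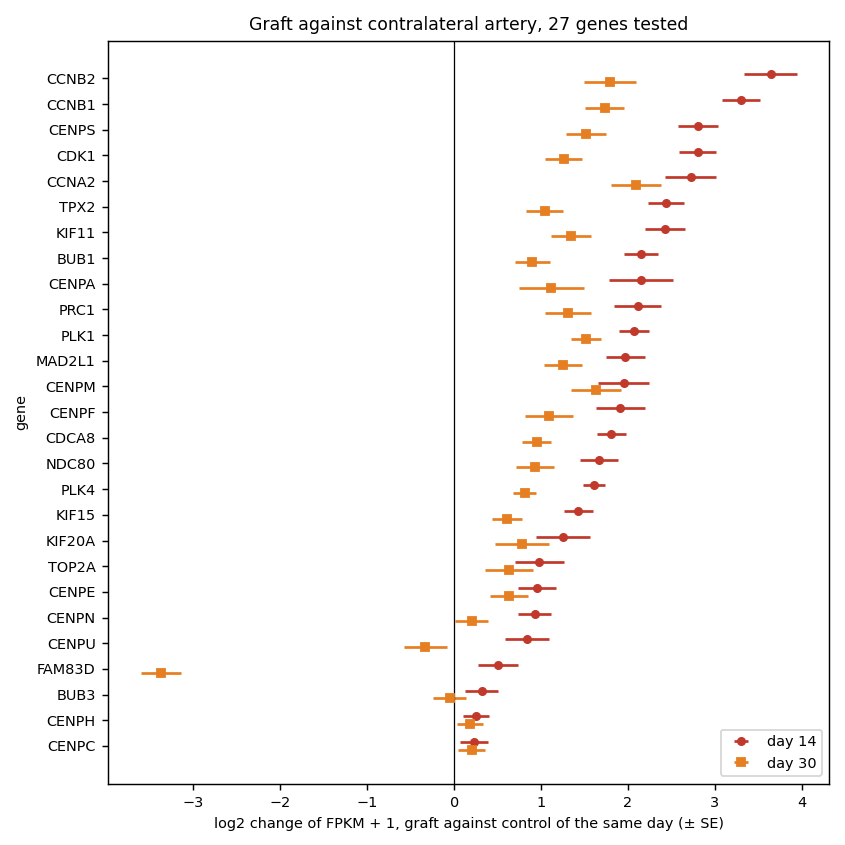
Change of log2(FPKM + 1) between graft and contralateral artery for the 27 tested genes, with bars of 1 SE, at day 14 (circles) and day 30 (squares), ordered by the day 14 change. CCNB2 tops the order at day 14 with 3.64, the day 30 points lie to the left of the day 14 points, and FAM83D at day 30 stands alone at -3.37.

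Grafts of day 30 stood below grafts of day 14 in most of these genes. Over all 51 members, the mean was lower at day 30 in 41, higher in 7 and equal in 3. The 7 were CENPH, CENPL, CENPO, ESPL1, AURKA, KIF4A and ANLN. The share of all genes with a lower mean was not counted. In the fit of all genes the median change was -0.29 for the members and 0 for all genes. The 34 members called higher at day 14 had been chosen on the day 14 graft values, so a lower day 30 mean was favoured among them. As a description, their day 30 means ran from 34% of the day 14 mean for BUB1 to 88.9% for CENPI. The direct comparison of grafts called 0 members higher and 12 lower of 51 in the fit of all genes, where 4.33% of all genes were higher and 4.21% lower (8.53% in either direction), and 0 higher and 13 lower of 27 with the filter, beside 8.01% and 8.31%. Of the 10 members that pass the filter without grafts, 5 were lower and 0 higher. The 13 were CDK1, CCNA2, CCNB1, CCNB2, PLK1, PLK4, BUB1, MAD2L1, CENPS, NDC80, CDCA8, KIF11 and TPX2. Grafts of the 2 days were apart for 9 members, all lower, against 5.08% of all genes.

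These calls between grafts depended on the processing. The count of 13 became 0 with TPM scaling, where each library is set to the same sum, and 0 when only the 2 graft groups were fitted. It was 2 without the 4 libraries near a mean of others and 0 with control day 14 also as 1 sample. Leaving out graft day 30 replicate 1 gave 7, and graft day 30 replicate 3 or graft day 14 replicate 3 or 4 gave 8. BUB1 fell from a mean of 3.71 ± 1.67 FPKM to 1.26 ± 0.276 (SD, n = 4), without overlap (exact two-sided permutation test, p = 0.0286, the smallest that 4 against 4 libraries can give), and CDK1 went from 6.48 ± 1.95 to 2.57 ± 0.847 FPKM with overlap of 1 library each (exact permutation p = 0.0571).

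The difference between the graft effects of the 2 days, each against its own control, was tested as an interaction. It was called negative for 12 of 27 members and positive for 0, where 7.57% and 5.38% of all genes were called, and for 12 of 51 in the fit of all genes, beside 3.61%. The effect was smaller at day 30 by 1.85 (SE 0.43) for CCNB2, 1.57 (SE 0.31) for CCNB1, 1.54 (SE 0.30) for CDK1, 1.40 (SE 0.29) for TPX2, 1.29 (SE 0.32) for CENPS, 1.25 (SE 0.28) for BUB1, 1.17 (SE 0.35) for CENPU and 1.09 (SE 0.32) for KIF11, with CDCA8, KIF15 and PLK4 between 0.80 and 0.86. FAM83D had the largest difference, -3.89 (SE 0.32, adjusted p = 8.33e-07). With the control libraries of day 14 counted as 1 sample the count was 1, FAM83D, and without the 4 libraries near a mean of others it was 4.

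The interaction also holds the difference between the controls of the 2 days. In that comparison 1 of 27 members, FAM83D, was higher at day 30 and 0 lower, where 6.28% and 4.45% of all genes were called. The fit of all genes likewise called 1 of 51 higher and 0 lower, beside 2.98% and 2.27%. With a constant of 0.1 in place of 1, 9 were higher, CDK1 by 1.97 (SE 0.41, adjusted p = 0.00453), CCNB2 by 2.50 (SE 0.55), CENPF by 1.89 (SE 0.53), BUB1 by 1.51 (SE 0.38), CCNB1 by 1.49 (SE 0.36), KIF11 by 1.26 (SE 0.39), KIF15 by 1.15 (SE 0.31), PLK4 by 0.75 (SE 0.23) and FAM83D by 4.47 (SE 0.27). The share of all genes called with the constant of 0.1 is not given here, so the 9 have no background beside them. Controls of day 30 lay wholly above those of day 14 for 15 of the 51 members and below for 0, against 7.78% and 5.95% of all genes. Their levels were still low: the summed FPKM of members other than FAM83D was 29.1 to 38.4 in the controls of day 30, against 25.5 to 26.6 at day 14. With control day 14 as 1 sample, FAM83D alone was called.

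FAM83D, which binds casein kinase 1 and helps to place it on the spindle, did not follow the other members. It stood at 0.68, 1.22, 1.17 and 1.15 FPKM in the controls of day 14, at 1.48, 2.25, 2.02 and 1.96 in the grafts of day 14, at 34, 22.9, 14.0 and 35.8 in the controls of day 30 and at 1.12, 1.47, 1.8 and 1.72 in the grafts of day 30. All 4 controls of day 30 lay above all other libraries of the series, and the vein stood at 9.74, 6.09, 6.62 and 8.86 FPKM. Its mean was thus 26.7 ± 10.2 FPKM in the controls of day 30 and 1.53 ± 0.306 in their grafts (SD, n = 4), and the log2 change was -3.37 (SE 0.23, adjusted p = 5.09e-09). At day 14 the difference was 0.51 (SE 0.23, adjusted p = 0.066), with all grafts above all controls. It passed the threshold there with a constant of 0.1, when only the 2 groups were fitted and without control day 30 replicate 3, with a lowest adjusted p of 0.0162.

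The rise between controls was 3.67 (SE 0.23, adjusted p = 1.04e-08), rank 20 among the 8657 genes tested. FAM83D is the only member with 2 transcripts in the table, and 1 of them held nearly all of the signal, with 14.0 to 35.8 FPKM in the controls of day 30 where the other was listed at 0. Neutrophil and mast cell markers also spread widely in the controls of day 30, at 11.8, 615, 1010 and 370 FPKM in replicates 1 to 4. FAM83D stood at 34, 22.9, 14.0 and 35.8 FPKM in the same libraries. In the controls of day 14, where FAM83D was at 0.68 to 1.22 FPKM, these markers summed to 360 to 408. Their part in the FAM83D values was not tested.

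**Figure D4:**
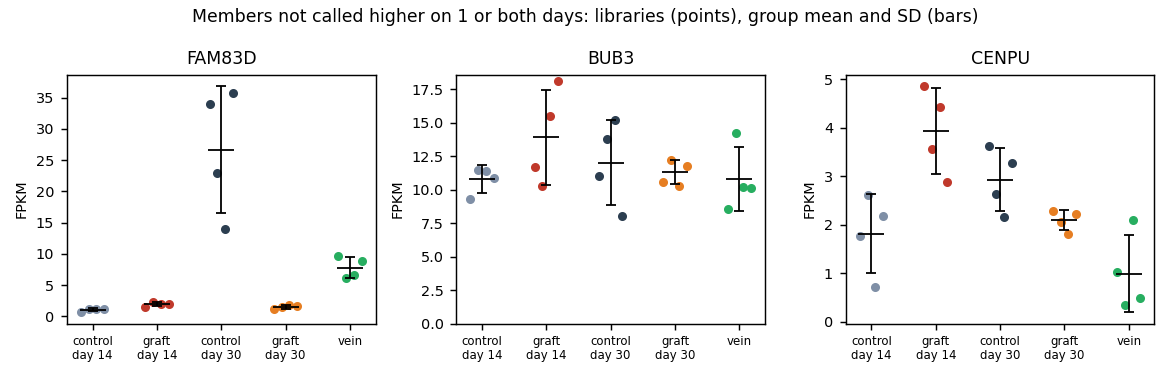
FPKM per library of FAM83D, BUB3 and CENPU in the 5 groups, with points for libraries and bars for the group mean and SD of 4 libraries. FAM83D is high only in the controls of day 30, at 14.0 to 35.8 FPKM, and in part in the vein, BUB3 overlaps between all groups, and CENPU is higher in grafts than in controls at day 14 and not at day 30.

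The unoperated vein differed from the unoperated arteries in fewer of these genes. Against the mean of both control groups, 11 of 27 members were higher and 1 lower, beside 25.2% and 12.0% of all genes tested, or 37.1% in either direction. In the fit of all genes the counts were 9 and 1 of 51, beside 15.2% and 6.93%, so the share of members called was close to the background. MAD2L1 had the widest difference (1.29, SE 0.19, adjusted p = 4.18e-05), at 6.67, 6.83, 7.27 and 7.12 FPKM in the vein. TPX2 was higher by 1.04 (SE 0.18, adjusted p = 0.000185), CCNA2 by 0.90 (SE 0.25), CCNB2 by 0.83 (SE 0.26), CCNB1 by 0.73 (SE 0.19) and CENPH by 0.61 (SE 0.13), whereas CENPU was lower (-0.79, SE 0.22, adjusted p = 0.00785). The count of 12 fell to 7 without vein replicate 1 or without vein replicate 4, to 5 with control day 14 as 1 sample, to 4 without the 4 libraries near a mean of others and to 2 with both changes.

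Grafts of day 14 lay above the vein in 23 of 27 members and below it in 2, where 25.9% and 17.5% of all genes were called (43.3% in either direction), and in 32 and 2 of 51 in the fit of all genes, beside 15.7% and 11.2%. Of the 10 members that pass the filter without grafts, 6 were higher and 2 lower than in the vein. The 2 lower were FAM83D (-1.58, SE 0.23) and CENPH (-0.52, SE 0.15). At day 30 the counts were 18 and 1 of 27, beside 19.2% and 14.2% (33.4% in either direction), and 22 and 1 of 51, beside 11.9% and 8.67%, or 20.5% in either direction. Of those 10 members, 4 were higher and 1 lower at day 30, with a median of 0.14. The number of 19 called at day 30 fell to 11 without the 4 libraries near a mean of others and to 7 with both changes. MAD2L1 did not differ beyond its spread between the grafts of day 30 and the vein: its means were 7.08 ± 1.85 and 6.97 ± 0.272 FPKM (SD, n = 4; log2 difference -0.01, SE 0.22). TPX2 likewise missed the threshold there (0.21, SE 0.21, adjusted p = 0.467), with 2.19 to 3.59 FPKM in the grafts and 2.27 to 2.67 in the vein. Over all 51 members, the vein mean lay between the mean of the controls and that of the day 30 grafts in 36. The share of all genes with this order was not counted. The summed endothelial markers stood at 453 to 563 FPKM in the vein, most of it VWF at a mean of 441. Against the vein, 2 of the 5 endothelial markers tested were higher and 2 lower in the grafts of day 14. The 2 higher were CDH5 and KDR, at means of 58.9 and 14.9 FPKM in these grafts and 33.6 and 3.53 in the vein. VWF and TEK were lower in these grafts, at means of 64.3 and 3.3 FPKM, with TEK at 7.68 in the vein. Their part in these values was not tested.

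Other genes of chromosome segregation, taken from 5 lists of related genes, moved in part with the members. Their counts stand beside 36.5% of all tested genes higher and 17.0% lower at day 14, and 26.0% and 11.6% at day 30. Of 32 further kinetochore, passenger and spindle genes found, 15 could be tested, and 13 were higher and 0 lower at day 14. NEK2, a centrosome kinase, rose by 2.74 (SE 0.23, adjusted p = 2.56e-08) and DLGAP5, a spindle protein, by 2.52 (SE 0.25). MELK, a kinase linked to proliferation, rose by 1.82 (SE 0.18), and NSL1, of the kinetochore's MIS12 complex, by 1.94 (SE 0.21). At day 30, 7 were higher and SKA2, of the kinetochore SKA complex, was lower (-0.42, SE 0.15, adjusted p = 0.0374). The median at day 14 was 1.33, against 0.26 over all genes tested. As with the members, genes low in the controls could pass the filter with graft libraries counted, which favoured genes higher in grafts.

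Of 11 genes tested of condensin and cohesin, the ring complexes that fold and hold chromosomes, 3 were higher and 1 lower at day 14, no larger a share than in all genes. Those higher were the condensin genes NCAPG2 by 2.21 (SE 0.18, adjusted p = 1.29e-08), NCAPG by 1.98 (SE 0.22) and SMC2 by 1.15 (SE 0.19), and the same 3 were called at day 30. The condensin genes SMC4 (1.15, SE 0.54, adjusted p = 0.0849) and NCAPD3 (0.23, SE 0.16, adjusted p = 0.235) did not pass. The cohesin gene RAD21 was lower at day 14, at 35.8 ± 7.11 FPKM in grafts and 51.8 ± 1.77 in controls (SD, n = 4; -0.54, SE 0.13, adjusted p = 0.00143), and was 0.00 (SE 0.13) at day 30. The anaphase-promoting complex, the ubiquitin ligase that starts chromosome separation, had 3 higher and 2 lower of 9 tested at day 14, close to the shares of all genes: CDC26 (1.18, SE 0.12), ANAPC4 (0.52, SE 0.10) and CDC27 (0.34, SE 0.13) against CDC23 (-2.10, SE 0.44) and ANAPC7 (-0.87, SE 0.09). At day 30 CDC26 was higher and ANAPC7 lower, by 0.76 (SE 0.12) and -1.05 (SE 0.09).

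Among cell cycle transcription factors, 5 of 11 tested were higher and 3 lower at day 14. MYBL2 (B-Myb), which activates mitotic genes with the MuvB complex, rose by 2.42 (SE 0.20, adjusted p = 2.26e-08), and LIN9, a MuvB subunit, by 0.80 (SE 0.14). RBL2 (p130), which represses cell cycle genes in resting cells, fell by 1.16 (SE 0.16) on the log2 scale, whereas its relatives RBL1 and RB1 rose by 0.80 (SE 0.19) and 0.48 (SE 0.10), and the MuvB subunits LIN52 and LIN54 fell by 1.53 (SE 0.17) and 0.60 (SE 0.20). At day 30, 4 were higher and 0 lower. FOXM1, a further activator of mitotic genes, was at or near 0 in all groups and not tested. Of 12 cyclins, kinases and inhibitors of cell cycle entry tested, 7 were higher and 0 lower at day 14, among them CDK4, the kinase of G1 (1.16, SE 0.10), CDC25A, a phosphatase that activates CDKs (1.35, SE 0.15), and the inhibitor genes CDKN2B (0.99, SE 0.12) and CDKN3 (1.74, SE 0.22). At day 30, 5 were higher and 0 lower.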

How the data were processed

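The authors deposited 1 table of FPKM values with 24964 transcript rows, rounded to 2 decimals. Per the submitters' processing notes, fastp, HISAT2, StringTie, RSEM and DESeq2 were used; their versions, their roles and the genome build are not given in the sources used here. Low values showed no steps of single reads, so depth and counting error are unknown. Transcripts were summed per gene, 23669 in all. Groups came from the labels, and vein columns were matched to samples by library name. limma 3.58.1 in R 4.3.3 fitted a mean per group over all 20 libraries to log2(FPKM + 1), with variances that follow the mean level, for genes of at least 1 FPKM in at least 4 libraries, or with no filter where said. The plan was to give genes under the filter by range alone; their values from the fit of all genes, an alternative, were added. Tests were two-sided. On data simulated for graft against control at day 14, with 200 of 8657 genes changed, 146 genes were called, 6 of them unchanged, and 58% of changes of 1 and 82% of changes of 2 (log2) were recovered. The simulated libraries were independent and had the same spread in all groups. In the real data the spread differed between groups, libraries were nearly identical and 53.5% of genes were called. These rates therefore do not give the error of the real comparison. Single genes were also compared by exact permutation (scipy 1.17.1). Exact symbols set the members; 10 genes of these families were named only through rabbit gene tables of assembly mOryCun1.1. Genes named in full were a fixed list of main mitotic genes, the members of largest and smallest change, those called lower, those not called at day 14 and those called in the interaction or between controls. From the related lists, up to 4 genes of smallest adjusted p at day 14 and all called the other way were named. Members, lists and the alternatives on nearly identical libraries were chosen with earlier results of these data known.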

Additional observations from a re-analysis of the deposited data

Results flagged for a closer look

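Of 84 groups of 4 libraries checked among the genes named by rule, those whose highest library reached at least 1 FPKM, 6 held a library far from the other 3 by Dixon's criterion, where chance gives about 1 in 20. These were CDK1 at 3.82 FPKM in graft day 30 replicate 2, KIF15 at 1.84 FPKM in the same library, CENPA at 1.08 FPKM in control day 30 replicate 1, CENPS at 7.21 FPKM in graft day 14 replicate 1, FAM83D at 0.68 FPKM in control day 14 replicate 1 and TPX2 at 2.67 FPKM in vein replicate 2.

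For 12 members the log2 effect of grafting differed between the days by the interaction test (day 30 minus day 14): FAM83D -3.89, CCNB2 -1.85, CCNB1 -1.57, CDK1 -1.54, TPX2 -1.40, CENPS -1.29, BUB1 -1.25, CENPU -1.17, KIF11 -1.09, CDCA8 -0.86, KIF15 -0.82 and PLK4 -0.80.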

How the results depend on the processing

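Counts of called members at day 14 against control (23) became 5 with a filter of 5 FPKM, 35 without a filter and 14 without genes listed at 0 in any library, and those at day 30 (20) became 6 and 13 under the first and last of these; fewer or more members were tested there. Between grafts the 13 became 6 with a pseudocount of 0.1, 5 with the 5 FPKM filter, 0 with TPM, 0 with only the groups compared, 7 with weights per group, 2 without the 4 libraries near a mean of others and 0 with control day 14 also as 1 sample. The 12 of the interaction became 4 with the 5 FPKM filter, 6 with TPM, 1 with control day 14 as 1 sample, 4 without the 4 libraries and 1 with both. The 1 between controls became 3 of 38 tested with TPM, beside 8.34% of all genes higher. It became 9 with a pseudocount of 0.1, 9 with only the groups compared and 2 with weights. Shares of all genes under these settings are not given here, so those counts have no background beside them. The 12 for vein became 5 with the 5 FPKM filter, 5, 4 and 2 under the last 3 changes. Against vein, the 25 at day 14 became 7 (5 FPKM) and 16 (no zeros), and the 19 at day 30 became 5 (5 FPKM), 11 and 7 (without the 4 libraries, and both). Where no value shows it, the cause was not tested. Without 1 library in turn the 8 counts, in the order given, ran from 22 to 24, 18 to 21, 7 to 15, 9 to 14, 1 to 2 (2 without vein replicate 2), 7 to 13, 22 to 25 and 13 to 21. With the replicate number as a block they were 23, 21, 11, 11, 1, 11, 25 and 18. The block paired no samples: same-numbered libraries had deviations correlated from -0.18 to 0.193, with no pair of groups over 0.1 in all 4. Reversed, all uncalled, were CENPC with quantile normalization (-0.10 at day 14, -0.11 at day 30), CENPH with it (-0.08, -0.11) and with TPM at day 30 (-0.05), and BUB3 at day 30 without control replicate 2 (0.02) or 3 (0.06). Of the other values of single genes under alternatives, 3781 kept direction and side of the threshold, 366 lost the call and 6 gained it. In comparisons other than graft against control, only values called in the main fit were followed. Calls gained there are therefore not in this tally. Median-of-ratios, TPM and quantile scaling moved the day 14 median of all genes by -0.23, -0.16 and -0.28, and its 3161 higher and 1473 lower calls to 2337 and 2160, 2370 and 1803, and 2234 and 2287; members called were then 22, 31 and 22 higher and 0 lower, of 26, 38 and 27. At day 30 these moved it by -0.15, -0.18 and -0.22. Members called were then 18, 21 and 16 higher and 1, 1 and 2 lower, of 26, 38 and 27. Of all genes tested, 19.7%, 14.0% and 17.6% were higher there. Values near 0 FPKM limit what any of these show for the 24 members under the filter.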

Other observations

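Within the grafts of day 14, replicates 3 and 4 both stood above replicates 1 and 2 in 24 of the 34 members higher at day 14, and in 30 of the 34 on the TPM scale. The same 2 libraries had FPKM sums over all genes of 422889 and 371438, against 557827 and 671582 in replicates 1 and 2, macrophage marker sums of 533 and 568 against 395 and 262 FPKM, and endothelial marker sums of 109 and 92.9 against 185 and 203 FPKM. Within the grafts of day 30, replicate 2 was the highest library in 21 of the 34 members. Members other than FAM83D summed to 78.7, 106, 74.5 and 93 FPKM in replicates 1 to 4 of these grafts. Macrophage markers summed to 198, 385, 391 and 339 FPKM there, so replicate 3 had the highest macrophage sum and the lowest sum of members. Vein replicate 2 was the lowest vein library in 23 of the 34, with CDK1 at 0.17 FPKM against 0.86 to 1.15 in the other 3 and CCNB2 at 0.29 against 1.9 to 2.69. Its macrophage markers summed to 51.1 FPKM against 93.4 to 117 in the other 3, and its neutrophil and mast cell markers to 30.8 against 98.2 to 142. Its endothelial and fibroblast markers were the highest of the vein libraries, at 563 FPKM against 453 to 482 and at 4550 against 3680 to 3880. How many of all genes follow these orders of libraries was not counted, so the orders are not shown to be particular to the members.

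Summed over the 51 members with FAM83D included, the controls of day 30 stood at 52.4 to 71.9 FPKM and the vein at 47.9 to 63.6. FAM83D alone gave 14.0 to 35.8 FPKM of the sum in these controls.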
